A study of Arabidopsis thaliana with 14 samples.

Results

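Helitrons are rolling-circle DNA transposons, and they were taken here as every transposable element (TE) row that the deposited annotation places in the RC/Helitron superfamily: 12945 of 31189 TE rows, among 109972 annotated rows in all. Helitrons were split by their distance to annotated Gene rows: 1868 overlapped a Gene row, 4034 lay within 500 bases of one without overlap (called flanking below), and 7043 lay farther away (called far). RNA-seq counts came from Arabidopsis thaliana siliques, each library from 3 siliques collected 6 to 9 days after anthesis, all in the Col-0 ecotype. The libraries were Aza1 eM3 (n = 4), Aza1 eM2 (n = 3), DMSO (n = 3), jas-3 (n = 2) and WT (n = 2). All groups except WT carry the jas-3 allele, a mutant of JASON whose plants make part of their pollen diploid, so that seeds of different ploidy share a silique after selfing. Aza1 is a single line descended from 1 jas-3 plant exposed as a seedling to 5-Azacytidine, a cytosine analogue that cannot be methylated once it is built into DNA, and DMSO marks the jas-3 solvent controls. The generation names eM2 and eM3 follow the study; the sample labels call the same libraries eM1 and eM2.

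Helitrons copy themselves by a rolling-circle mechanism, have short conserved ends and leave no duplicated target site. Most Arabidopsis copies belong to non-autonomous ATREP and HELITRONY families that encode no protein, and many lie near genes, where RNA-directed DNA methylation is a known silencing route. Arabidopsis Helitrons are also known to carry CArG boxes, the sites bound by MADS-box transcription factors of the endosperm, the tissue that feeds the embryo.

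The Helitrons shown here, read from the plus strand of the TAIR10 chromosomes, are the ones on which the results below turn. The first pair are the far Helitron with the highest level for its length, at chr2:8530161-8530188 in a non-coding RNA gene, and the Helitron with the most counts of all, at chr2:8539130-8539189 in the exon of AT2G19802. Capitals mark the longest run that the pair share, 15 bases, which occurs 6 times in the genome over both strands.
AT2TE35690: CAATTAGTTTCATTTtttgttgtttgtg
AT2TE35735: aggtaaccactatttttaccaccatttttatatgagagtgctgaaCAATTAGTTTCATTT
AT1TE86265 at chr1:26333339-26333486 lies outside any RefSeq gene, had no count in WT and had the next highest level for its length among far Helitrons; capitals mark its CArG box, a match found in 0.896% of all windows of 148 bases in the genome.
AT1TE86265: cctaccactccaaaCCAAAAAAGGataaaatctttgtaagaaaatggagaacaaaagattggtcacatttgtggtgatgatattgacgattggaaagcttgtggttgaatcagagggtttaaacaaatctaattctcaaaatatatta
AT5TE63425 at chr5:17543094-17543257 had no count in the Aza1 eM2 or the WT libraries and some in all the others.
AT5TE63425: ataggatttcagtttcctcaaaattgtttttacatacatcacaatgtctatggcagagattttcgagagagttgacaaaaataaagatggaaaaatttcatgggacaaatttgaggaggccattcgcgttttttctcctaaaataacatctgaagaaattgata
AT4TE13280 at chr4:2828374-2829348 was one of 2 far Helitrons called higher in Aza1 eM2 than in DMSO and had counts in all 3 Aza1 eM2 libraries, and its first 150 bases (chr4:2828374-2828523) are given.
AT4TE13280: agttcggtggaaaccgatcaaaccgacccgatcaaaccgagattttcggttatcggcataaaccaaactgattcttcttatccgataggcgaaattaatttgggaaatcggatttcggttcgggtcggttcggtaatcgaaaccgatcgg

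Total Gene counts were between 40526464 and 43974069 per library, and levels are given as counts per 1000000 Gene counts of the library (CPM). The 2 WT libraries stood apart. Seed storage protein genes made up 15% to 27.8% of Gene counts in Aza1 eM3, 22.0% to 31.0% in Aza1 eM2, 10.7% to 22.8% in DMSO, 8.03% to 17.2% in jas-3 and 37.2% to 43.1% in WT. The summed level of 7 endosperm markers was 63.9 to 82.0 CPM in Aza1 eM3, 58.3 to 61.1 in Aza1 eM2, 75.5 to 105 in DMSO, 86.9 to 105 in jas-3 and 14.3 to 18.2 in WT, where FWA and MINI3 had no count. Photosynthesis genes of the green silique wall summed to 6230 to 9650 CPM in jas-3 and 2300 to 2590 in WT, and seed coat markers to 1220 to 2130 in jas-3 and 641 to 755 in WT. JASON itself had 80 to 225 counts in the libraries of the jas-3 background and 14 in each WT library, and counts over a whole gene cannot check an insertion allele, so the 2 groups are called the libraries labelled jas-3 and WT. There were 25 Gene rows with no count in either WT library and at least 100 in every other library. The jas-3 genotype cannot be told apart from a difference in seed stage or plant stock in any comparison with WT below. Fewer cells of a type and less RNA per cell cannot be told apart in such bulk samples.

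Summed over all 12945 rows, counts on Helitron rows were about 3 times as high in libraries labelled jas-3 as in those labelled WT, and their level in Aza1 eM2 lay between the 2. The summed level was 4044, 2839, 3353 and 2614 CPM in Aza1 eM3, 1814, 2142 and 1937 in Aza1 eM2, 4340, 3765 and 3304 in DMSO, 3972 and 3935 in jas-3, and 1360 and 1281 in WT. The Aza1 eM2 libraries did not overlap the DMSO or the WT libraries, whereas the Aza1 eM3 libraries overlapped the DMSO libraries. The ratio of means was 2.99 for jas-3 against WT and 0.517 for Aza1 eM2 against DMSO. The other 18244 TE rows, summed in the same way, had a ratio of 1.08 for jas-3 against WT and 1.16 for Aza1 eM2 against DMSO. After TMM, a rescaling of the Gene counts that sets the bulk of genes equal between libraries, the ratio for jas-3 against WT was 1.74 for Helitrons and 0.628 for other TEs, so the direction for other TEs depended on the scaling. As a share of all TE counts, Helitrons took 29.5% to 38.6% in Aza1 eM3, 20.4% to 22.0% in Aza1 eM2, 34.2% to 39.2% in DMSO, 36.1% to 36.8% in jas-3 and 16.6% to 17.8% in WT. This share also moves with the other TEs. After TMM the ratio for Aza1 eM2 against DMSO was 0.622 for Helitrons and 1.39 for other TEs. Most of the Helitron sum lay on rows that overlap a Gene row and can hold the reads of that gene. Before TMM their means were 2923 of 3953 CPM in jas-3 and 1032 of 1320 in WT. They were 1501 of 1965 CPM in Aza1 eM2 and 2836 of 3803 in DMSO.

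**Figure D1:**
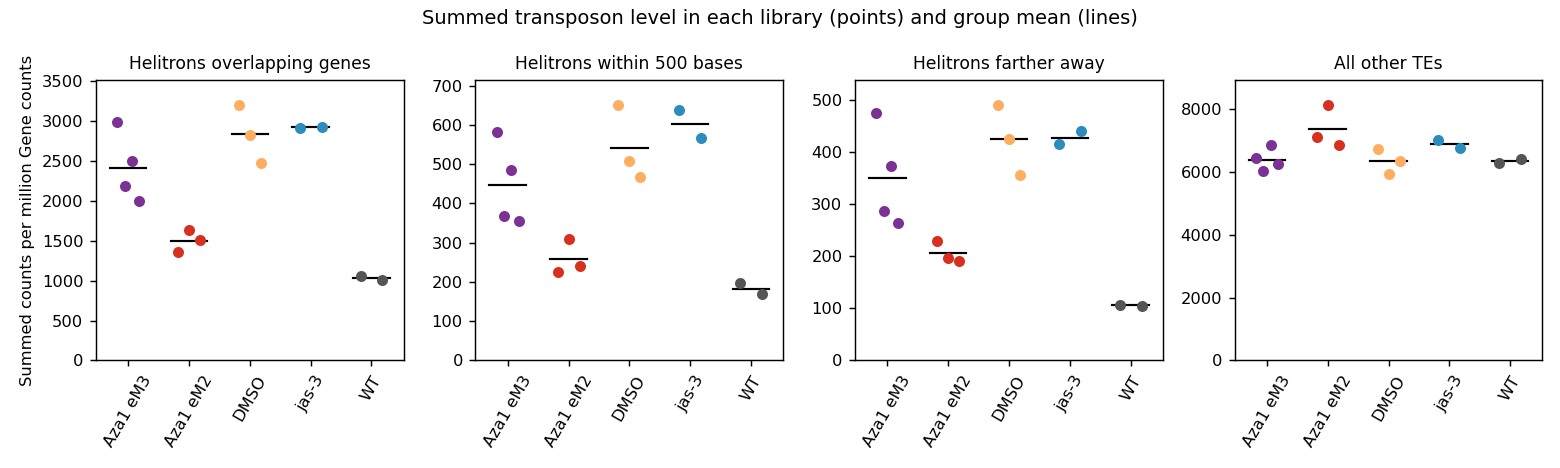
Summed level in counts per 1000000 Gene counts (vertical axis, linear from 0) of Helitrons that overlap genes, lie within 500 bases or lie farther away, and of all other TEs, with 1 point per library and a line at the group mean. Far Helitrons averaged 206 CPM in Aza1 eM2, against 424 in DMSO, and 428 in jas-3 and 105 in WT.

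In each of the 3 classes the mean was lower in Aza1 eM2 than in DMSO and higher in jas-3 than in WT. Far Helitrons had 475, 287, 373 and 264 CPM in Aza1 eM3, 230, 197 and 191 in Aza1 eM2, 490, 426 and 357 in DMSO, 416 and 440 in jas-3, and 107 and 104 in WT. Few rows carried this sum: the 10 far Helitrons with the most counts held 43.7% to 61.5% of far counts in the 12 libraries of the jas-3 background and 7.14% and 4.62% in WT. Without those 10, chosen by their counts over all libraries, the ratio of means for jas-3 against WT dropped to 1.89, against 4.07 for all far rows. The ratio for jas-3 against WT also depended on the scaling. After TMM it was 2.36 for all far rows and 1.09 without the 10. For Aza1 eM2 against DMSO the ratio of means was 0.485 for all far rows and 0.641 without the 10. Among the 10 is AT2TE17095, with 2723, 1 and 1374 counts in Aza1 eM2, nearly the same as an En-Spm row within it. These counts are part of the far sums of Aza1 eM2. Between 511 and 581 far rows had a count in an Aza1 eM2 library and 665 to 725 in a DMSO library, and 649 to 684 in a jas-3 and 417 to 458 in a WT library. Over all libraries 6657 Helitrons had at least 1 count and 6288 had none, and 1188 had enough for testing, of which 718 overlapped a gene, 271 were flanking and 199 were far.

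The comparison of jas-3 with WT asked which transposons differ where siliques hold jas-3 seeds. A row was called when its fold change reached 2 on the log2 scale with an adjusted p under 0.01 in edgeR's quasi-likelihood test. Of the 1188 tested Helitrons, 273 were called higher in jas-3, which is 23.0%, against 7.85% of all tested Gene and TE rows, and 26 were called lower, against 2.03%. Those called higher were 148 overlapping (20.6% of those tested), 78 flanking (28.8%) and 47 far Helitrons (23.6%). Shares here and below are of tested rows. The filter on low counts kept 1188 of 12945 Helitrons and 22412 of 27394 Gene rows. A row with no count in WT could pass it only through the other groups. Of all annotated rows, 273 of 12945 Helitrons and 1592 of 27394 Gene rows were called higher, a smaller share for Helitrons than for Gene rows. Among other superfamilies, the share called higher was 9.17% of MuDR, 11.1% of LINE L1, 7.61% of Copia, 3.52% of Gypsy and 1.36% of En-Spm rows. The median log2 fold change was 0.79 over tested Helitrons and 0.08 over all tested rows, a filtered set in which a row can pass through the groups where it is high. With no filter both medians were 0. Without TMM the median of all rows shifted to 0.87 and that of Helitrons to 1.66. The count rested on both WT libraries: 166 Helitrons were called higher without WT replicate 1 and 154 without WT replicate 2. It was 102 with the storage protein share as a covariate and 112 with only these 4 libraries in the fit. The storage share of the WT libraries did not overlap that of any other group. In comparisons with WT, a fit with this covariate thus separates the share from the group only poorly.

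**Figure D2:**
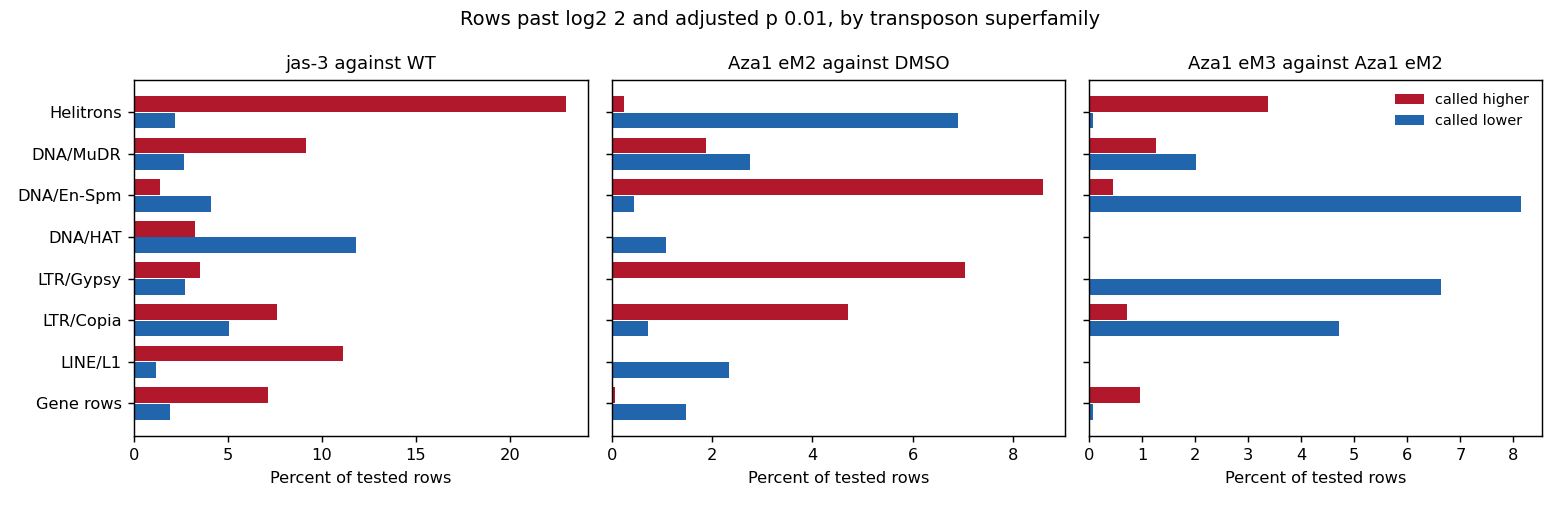
Percent of tested rows called higher (red) or lower (blue) in 3 comparisons, by TE superfamily, with Gene rows at the bottom; horizontal axes differ between panels. Helitrons had 23.0% called higher in jas-3 against WT and 6.90% called lower in Aza1 eM2 against DMSO, where 7.03% of Gypsy rows were called higher.

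Of the 4 far Helitrons called higher in jas-3 with the smallest adjusted p, 3 lay in RNA genes or pseudogenes that are not Gene rows. AT2TE35685, an ATREP7 copy of 327 bases, had 1813, 1241, 1679 and 945 counts in Aza1 eM3, 360, 639 and 486 in Aza1 eM2, 3384, 2347 and 1816 in DMSO, 2853 and 2417 in jas-3, and 3 and 1 in WT. Its log2 fold change for jas-3 against WT was 9.48 (SE 0.47, adjusted p = 1.46e-07). The row at chr2:8529599-8529925 lies 971 bases before MIOX2, a myo-inositol oxygenase gene, and partly in an exon of AT2G19796, which RefSeq annotates as a non-coding RNA and which is not a Gene row. AT2TE35690, in an exon of the same RNA gene, had 1590, 808, 1114 and 734 counts in Aza1 eM3, 217, 394 and 298 in Aza1 eM2, 1789, 1510 and 981 in DMSO, 1587 and 1622 in jas-3, and 0 and 5 in WT. MIOX2 itself had 276 and 174 counts in jas-3 and 44 and 322 in WT, where the groups overlap.

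AT1TE58610, an ATREP10D copy outside RefSeq genes at chr1:17653392-17654582, had 1088, 1016, 708 and 756 counts in Aza1 eM3, 394, 658 and 471 in Aza1 eM2, 1002, 1128 and 1064 in DMSO, 467 and 983 in jas-3, and 3 and 2 in WT. Its log2 fold change for jas-3 against WT was 7.35 (SE 0.60, adjusted p = 3.56e-06). All 12 libraries of the jas-3 background were above both WT libraries. AT5TE52920, an ATREP10D copy of 4490 bases that overlaps the pseudogene AT5G37145, had 332 and 627 counts in jas-3 and 0 and 2 in WT, a ratio of 271 with a counting interval of 74.7 to 2240. Rows of other TEs, 4 in all, cover 43.5% of AT5TE52920. The highest of these, the MuDR row AT5TE52945, had 83 and 181 counts in jas-3 and 0 and 0 in WT. AT1TE86265, whose CArG box is shown above, had 1218 and 1886 counts in jas-3 and none in WT, at least 195-fold higher against a floor of 3 counts per library. Its nearest Gene row, the glutathione transferase gene GSTU12, had 6 and 2 counts in jas-3 and 2 and 0 in WT.

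**Figure D3:**
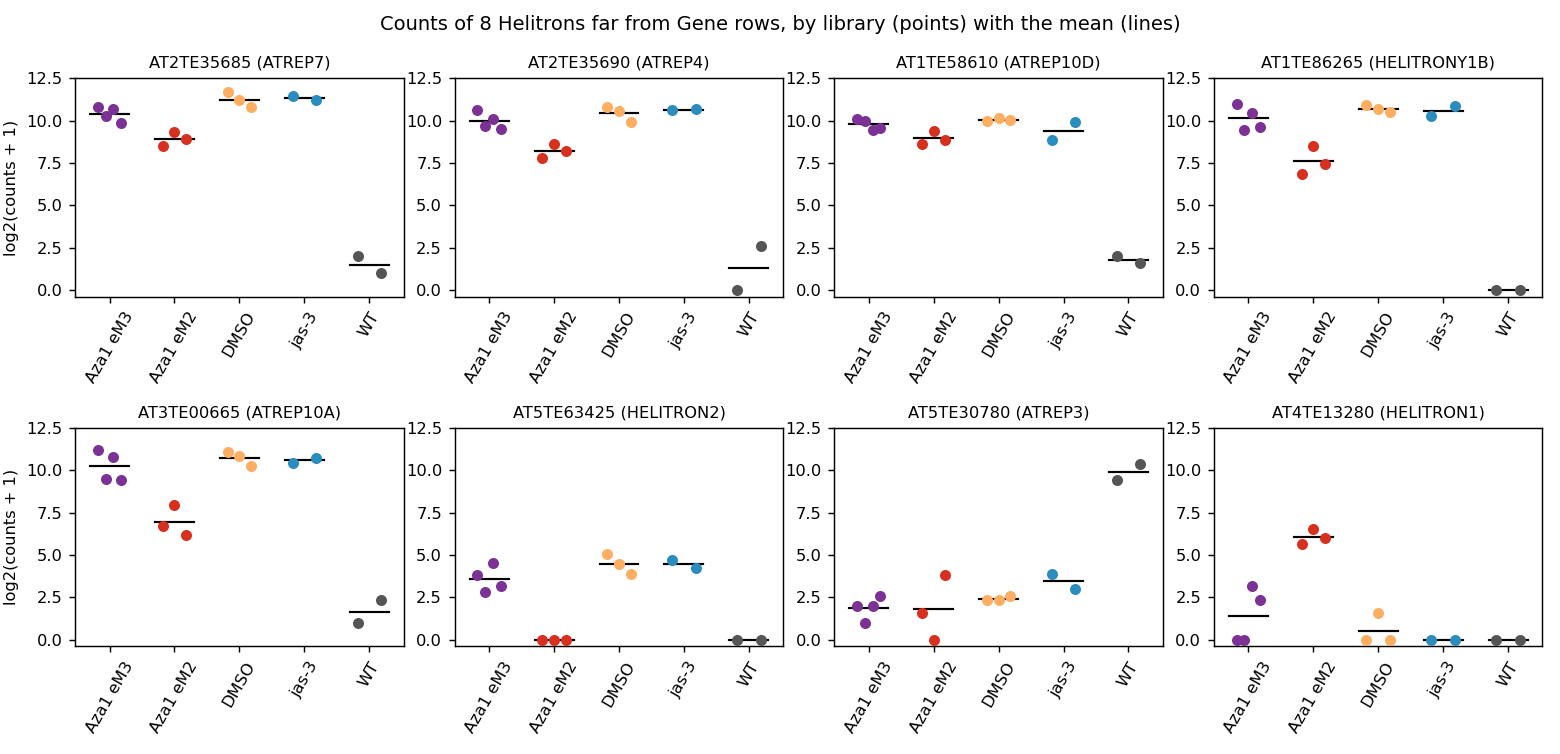
Counts of 8 far Helitrons as log2(counts + 1), with 1 point per library and a line at the mean of the transformed values. AT1TE86265 and AT5TE63425 had no count in WT, AT5TE30780 had 679 and 1334 counts in WT and at most 14 elsewhere, and AT4TE13280 had 50, 92 and 62 counts in Aza1 eM2.

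Near genes, Helitrons called higher in jas-3 mostly sat in genes that were called higher too. Of the 147 such overlapping Helitrons whose Gene row was tested, 129 had that Gene row called higher (87.8%), against 22.5% of all tested overlapping Helitrons. The share was 57 of 78 for flanking Helitrons, against 33.5% of all tested flanking Helitrons. A Helitron and a Gene row that overlap can hold the same reads and are not independent measurements: AT1TE65685 had 2200 and 2949 counts in jas-3 and 2 and 6 in WT, and the thionin gene AT1G53285 that it overlaps had 2194 and 2949 in jas-3 and 2 and 6 in WT. The remaining 21 flanking Helitrons were called higher beside a Gene row that was not. For far Helitrons called higher, the nearest Gene row was tested for 30 and called higher for 10 (33.3%). This compares with 14.6% of all tested far Helitrons whose nearest Gene row was tested.

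**Figure D4:**
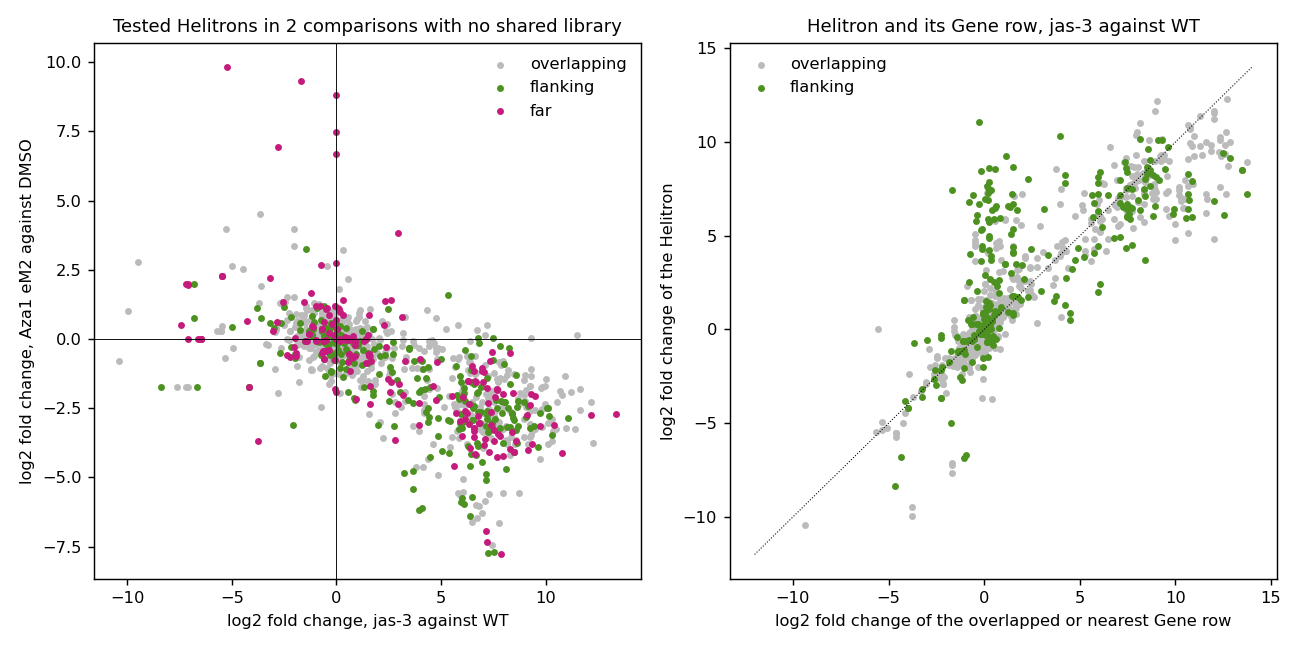
Left, log2 fold change of each tested Helitron for jas-3 against WT (horizontal) and for Aza1 eM2 against DMSO (vertical), which share no library; all 82 Helitrons called lower in Aza1 eM2 lie at the lower right. Right, log2 fold change for jas-3 against WT of each overlapping or flanking Helitron (vertical) and of its overlapped or nearest Gene row (horizontal), with a dotted line of equality. Of the 147 overlapping Helitrons called higher whose Gene row was tested, 129 had that Gene row called higher too.

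Of the 191 Helitrons called higher that lie in a RefSeq gene, 39 lie in genes annotated as cysteine-rich, defensin-like or thionin proteins, against 66 of 919 among all tested Helitrons in RefSeq genes; this group was named after the calls were seen. AT3TE42885, an ATREP10D copy over the Gamma-thionin gene AT3G27835, had 2502, 2495, 2191 and 1632 counts in Aza1 eM3, 1007, 1263 and 1186 in Aza1 eM2, 2901, 2529 and 2149 in DMSO, 2500 and 2913 in jas-3, and 5 and 9 in WT. Its log2 fold change for jas-3 against WT was 7.76 (SE 0.35, adjusted p = 1.23e-07). AT2TE24770, over the low-molecular-weight cysteine-rich gene LCR84, had 1774 and 2377 counts in jas-3 and 24 and 8 in WT. The Helitron with the most counts of all, AT2TE35735, named after its values were seen, lies in an exon of AT2G19802 and had 7889 and 8887 counts in jas-3 and 1 and 17 in WT.

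Fewer Helitrons were lower in jas-3 than in WT, and the 3 near ones with the smallest adjusted p lay in ESP and HPL1. AT1TE66640 and AT1TE66645 lie within ESP, which encodes the epithiospecifier protein that redirects glucosinolate breakdown. AT1TE66640 had 0, 1, 5 and 2 counts in Aza1 eM3, 1, 0 and 1 in Aza1 eM2, 0, 0 and 1 in DMSO, 3 and 4 in jas-3, and 1829 and 2253 in WT. AT1TE66645 lies in an ESP intron and had 10 and 0 counts in jas-3 and 1806 and 2244 in WT. Its call was lost with DESeq2 (adjusted p = 0.143) and with the storage share as a covariate (adjusted p = 0.104).

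ESP itself had 3249 and 2658 counts in jas-3 and 20691 and 24183 in WT. The log2 fold change for jas-3 against WT was -3.77 for ESP (SE 0.74, adjusted p = 0.00213) and -9.97 for AT1TE66640 (SE 0.55, adjusted p = 3.31e-07). In an intron of HPL1, a hydroperoxide lyase gene of oxylipin synthesis, AT4TE39490 had 37 and 41 counts in jas-3 and 766 and 998 in WT. HPL1 was lower too, with log2 fold changes of -5.34 for AT4TE39490 (SE 0.64) and -5.35 for HPL1 (SE 0.49). AT4TE39490 had an adjusted p of 0.38 with the storage share as a covariate, and the adjoining AT4TE39495 had 48 and 58 counts in jas-3 and 790 and 1021 in WT.

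Only 3 far Helitrons were called lower in jas-3. AT5TE30780, which lies in the pseudogene AT5G24775 next to VSP2, a jasmonate-induced storage protein gene, had 3, 1, 3 and 5 counts in Aza1 eM3, 2, 0 and 13 in Aza1 eM2, 4, 4 and 5 in DMSO, 14 and 7 in jas-3, and 679 and 1334 in WT. Its log2 fold change for jas-3 against WT was -7.45 (SE 0.81, adjusted p = 3.06e-05), and -4.97 with the storage share as a covariate, where the call was lost (adjusted p = 0.184). AT3TE34720 and AT3TE46220 had few counts, 1 and 2 in jas-3 against 12 and 23 in WT, and 0 and 0 in jas-3 against 13 and 10 in WT. The fit with only these 4 libraries called neither (adjusted p = 0.0199 for AT3TE34720 and 0.0178 for AT3TE46220). With the storage share as a covariate the log2 fold change of AT3TE34720 was -0.35 (adjusted p = 0.948), against -4.27 without it. AT3TE46220 was not called either (adjusted p = 0.107), though its log2 fold change was -11.83 with the covariate and -7.11 without it.

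The solvent controls against WT share the WT libraries with the comparison above and gave similar counts: 293 Helitrons were called higher in DMSO (24.7%, against 8.32% of all rows), of which 52 were far, and 50 were called lower (4.21%, against 3.11%), of which 11 were far. The 293 became 195 without WT replicate 1 and 184 without WT replicate 2. AT1TE73185, a HELITRONY3 fragment of 24 bases, had 2, 3 and 0 counts in DMSO and 44 and 37 in WT. The log2 fold change of AT1TE73185 was -5.24, and -1.62 with the storage share as a covariate, where the call was lost (adjusted p = 0.713). AT3TE39980, an ATREP11 copy, had 16, 21 and 14 counts in DMSO and 40 and 42 in WT, with a log2 fold change of -2.01 at the edge of the fold limit. It was not called with the storage share as a covariate (-1.19, adjusted p = 0.367), without TMM (-1.32, adjusted p = 0.0154) or with only these 5 libraries (-1.99).

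DMSO and untreated jas-3 differed at 1 Helitron of 1188, called higher in DMSO, against 0.0855% of all rows called higher and 0.105% called lower. AT4TE10030, an ATREP10 copy in an intron of RbcX1, a chaperone gene of Rubisco assembly, had 92, 59, 108 and 75 counts in Aza1 eM3, 86, 59 and 121 in Aza1 eM2, 116, 93 and 140 in DMSO, 14 and 8 in jas-3, and 3 and 4 in WT. The call was lost with only the 5 DMSO and jas-3 libraries in the fit (adjusted p = 0.0181) and without either jas-3 library. RbcX1 itself had 731, 581 and 816 counts in DMSO and 136 and 97 in jas-3, with a log2 fold change of 2.69 (SE 0.32, adjusted p = 0.000938). No Helitron was called lower by edgeR, and DESeq2 called 1 lower. In edgeR 72 Helitrons had an unadjusted p under 0.05 (6.06%, against 10.4% of all rows), and 46 of them had a lower level in DMSO.

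The comparison of Aza1 eM2 with DMSO asked how the 5-Azacytidine line differs from its solvent control. Helitrons were mostly lower: 82 of 1188 were called lower in Aza1 eM2 (6.90%, against 1.75% of all rows) and 3 were called higher (0.253%, against 0.346% of all rows). The 82 were 41 overlapping, 25 flanking and 16 far Helitrons and fell into 65 loci when rows within 500 bases were joined. Of other TEs, 3.24% were called higher and 1.64% lower. The median log2 fold change was -0.39 over tested Helitrons and 0.01 over all rows, and with total Gene counts alone the 2 medians were -0.74 and -0.25.

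The size of this set depended on single libraries. Without Aza1 eM2 replicates 1, 2 and 3 it was 17, 49 and 30, and without DMSO replicates 1 and 2 it was 26 and 33. It was 25 with the storage share as a covariate and 163 with DESeq2. At a distance limit of 2000 bases instead of 500, 3 of the 16 far Helitrons counted as far.

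All 82 Helitrons called lower in Aza1 eM2 were also called higher in jas-3 against WT, a comparison that shares no library with this one. They were 30.0% of the 273 Helitrons called higher in jas-3, and 23.0% of all tested Helitrons were so called. Likewise 321 of 334 Gene rows called lower in Aza1 eM2 were called higher in jas-3 against WT (96.1%). Over the 273 Helitrons the median log2 fold change for Aza1 eM2 against DMSO was -2.34. The summed level of the 7 endosperm markers was lower in all 3 Aza1 eM2 libraries than in any DMSO library, as given above. Of the single markers only FWA was called, with log2 fold changes over the 7 between -3.16 and 0.39, and the part of these markers in this result was not tested.

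AT3TE00665 and AT3TE00670 adjoin each other on chromosome 3, with AT3TE00665 partly in exons of AT3G01415, a RefSeq tubulin-tyrosine ligase gene that is not a Gene row. AT3TE00665 had 2333, 726, 1811 and 701 counts in Aza1 eM3, 105, 250 and 73 in Aza1 eM2, 2206, 1840 and 1226 in DMSO, 1401 and 1722 in jas-3, and 1 and 4 in WT. Its log2 fold change for Aza1 eM2 against DMSO was -3.36 (SE 0.48, adjusted p = 0.00148). AT3TE00670 had 17, 30 and 8 counts in Aza1 eM2, against 309, 242 and 167 in DMSO, with no overlap between the groups, and was not called with the storage share as a covariate (adjusted p = 0.0103). Of the Gene rows on either side, AT3G01410 had 291, 438 and 306 counts in Aza1 eM2, against 605, 501 and 412 in DMSO, and the dioxygenase gene DOX1 had 8184, 2787 and 6424 in Aza1 eM2, against 4808, 4784 and 3994 in DMSO; neither was called.

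AT1TE64910, a fragment of 45 bases in the transcribed pseudogene AT1G52696, had 15, 34 and 19 counts in Aza1 eM2, against 280, 245 and 159 in DMSO, and AT1G52695 beside it was called lower as well (log2 fold change -2.38, SE 0.30, adjusted p = 0.000984). AT5TE63425, a HELITRON2 copy, had 13, 6, 22 and 8 counts in Aza1 eM3, 0, 0 and 0 in Aza1 eM2, 33, 21 and 14 in DMSO, 25 and 18 in jas-3, and 0 and 0 in WT. It was at least 3.5-fold lower in Aza1 eM2 than in DMSO against the floor of 3 counts per library. AT2TE35685 and AT1TE86265, described above, were lower in Aza1 eM2 with log2 fold changes of -2.05 (SE 0.22, adjusted p = 0.000629) and -2.70 (SE 0.42, adjusted p = 0.003). With the storage share as a covariate AT2TE35685 stood at -1.67, short of the fold limit.

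Near genes, 36 of 41 overlapping Helitrons called lower in Aza1 eM2 had a Gene row called lower (87.8%, against 9.80% of all tested overlapping Helitrons), as did 13 of 25 flanking ones (against 18.8%). For far Helitrons called lower, the nearest Gene row was tested for 12 and called lower for 4 (33.3%, against 7.28%). AT5TE11670, a HELITRONY3 copy over ANNAT7, an annexin gene whose product binds membranes in the presence of calcium, had 232, 121, 278 and 138 counts in Aza1 eM3, 29, 33 and 27 in Aza1 eM2, 448, 348 and 232 in DMSO, 347 and 259 in jas-3, and 0 and 0 in WT. Its log2 fold change for Aza1 eM2 against DMSO was -3.21 (SE 0.29, adjusted p = 0.000371). AT4TE34110, over MEE56, a heavy-metal transport family gene, had 11, 9 and 12 counts in Aza1 eM2, against 204, 161 and 148 in DMSO. AT2TE48400, at the end of the MADS-box gene AGL33, had 40, 74 and 64 counts in Aza1 eM2, against 1139, 742 and 683 in DMSO, and AGL33 had 21, 66 and 35 in Aza1 eM2, against 699, 430 and 476 in DMSO.

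Of the 3 Helitrons called higher in Aza1 eM2, 2 were HELITRON1 copies. AT4TE13280, a HELITRON1 copy outside RefSeq genes in a pericentromeric window, had 0, 0, 8 and 4 counts in Aza1 eM3, 50, 92 and 62 in Aza1 eM2, 0, 2 and 0 in DMSO, and none in jas-3 or WT. The ratio for Aza1 eM2 against DMSO was 126 with a counting interval of 34.3 to 1040. It was called by edgeR (adjusted p = 0.00797) but not with the storage share as a covariate (adjusted p = 0.0164). AT1TE30845, a HELITRON1 copy over AT1G27565, had 76, 46, 22 and 12 counts in Aza1 eM3, 100, 140 and 116 in Aza1 eM2, 12, 18 and 16 in DMSO, 18 and 12 in jas-3, and 12 and 2 in WT, and the Gene row had exactly the same counts. Its 100-base windows occurred once in the genome in 82.2% of cases, against 100% for AT4TE13280. Its call (log2 fold change 3.22, adjusted p = 0.00747) was lost with total Gene counts (adjusted p = 0.0108) and with the storage share as a covariate (adjusted p = 0.0257).

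AT2TE17095, a HELITRONY2 row of 18766 bases, was named after its values were seen because its groups overlap: it had 2, 6, 4 and 4 counts in Aza1 eM3, 2723, 1 and 1374 in Aza1 eM2, 4, 4 and 0 in DMSO, 2 and 0 in jas-3, and 4 and 0 in WT. An En-Spm transposon row, AT2TE17110 of family ATENSPM6, lies within it and had 2723, 1 and 1372 counts in Aza1 eM2. Nearly the same counts thus stood on both rows. Among the tested Helitrons 37 overlap a row of another TE superfamily, as do 2 of the 82 called lower in Aza1 eM2 and 10 of the 273 called higher in jas-3.

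In Aza1 eM3 against Aza1 eM2, 40 Helitrons were called higher (3.37%, against 1.05% of all rows), 4 of them far, and 1 was called lower (0.0842%, against 0.330%), the nested AT2TE17095. This comparison shares the Aza1 eM2 libraries with the one above. The count of 40 was between 1 without Aza1 eM2 replicate 1 and 61 without Aza1 eM3 replicate 2, and it was 3 with only the 7 Aza1 libraries in the fit. It was also 17 and 6 without Aza1 eM2 replicates 2 and 3, and 16 and 13 without Aza1 eM3 replicates 1 and 3.

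AT1TE86265 had 2067, 688, 1414 and 800 counts in Aza1 eM3 and 115, 364 and 172 in Aza1 eM2, a log2 fold change of 2.35 (SE 0.40, adjusted p = 0.00708) that missed the threshold with only the Aza1 libraries (adjusted p = 0.0264) and with the storage share as a covariate (adjusted p = 0.0105). AT3TE00665 was higher in Aza1 eM3 by 3.11 on the log2 scale (SE 0.46, adjusted p = 0.00314), and was not called with only the Aza1 libraries (adjusted p = 0.0197). Aza1 eM3 replicates 1 and 3 were high and replicates 2 and 4 low at both of these Helitrons. AT2TE82925, a HELITRONY1E fragment at the edge of AT2G44250, had 580, 228, 546 and 273 counts in Aza1 eM3 and 48, 66 and 57 in Aza1 eM2, and AT2G44250 had 12479, 5779, 14479 and 7309 in Aza1 eM3 and 1321, 2099 and 1561 in Aza1 eM2.

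Aza1 eM3 and DMSO were not told apart at any Helitron: edgeR called 0 of 1188, as it called 0 of all rows (0% higher and 0% lower). Of the Helitrons, 81 had an unadjusted p under 0.05 (6.82%, against 7.43% of all rows), and DESeq2 called 1 higher. The median log2 fold change over tested Helitrons was -0.14. A missed threshold does not show that the 2 groups are the same. AT5TE18590, an ATREP15 fragment of 40 bases among the 5 far Helitrons with the highest level for their length, was not called in any comparison and had 217, 178, 146 and 145 counts in Aza1 eM3, 216, 152 and 109 in Aza1 eM2, 118, 128 and 181 in DMSO, 99 and 162 in jas-3, and 188 and 152 in WT.

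Helitrons belong to 34 annotated families. In jas-3 against WT, 45 of 146 tested ATREP10D rows were called higher (30.8%), 31 of 128 ATREP3 rows, 31 of 126 HELITRONY3 rows and 28 of 96 ATREP15 rows. The share was 23.0% over all tested Helitrons and 7.85% over all tested rows. ATREP10D had the most tested rows, and some smaller families had a higher share, such as ATREP6 with 8 of 17 (47.1%). In the HELITRON families, which include copies with coding sequence, those called higher were 0 of 24 HELITRON1, 3 of 22 HELITRON2, 1 of 16 HELITRON4 and 0 of 12 HELITRON5 rows. HELITRON1 held 2 of the 3 rows named above as higher in Aza1 eM2. Its 93 far copies together had 879, 791, 1059 and 874 counts in Aza1 eM3, 757, 935 and 810 in Aza1 eM2, 890, 938 and 942 in DMSO, 921 and 773 in jas-3, and 225 and 202 in WT, and the Aza1 eM2 and DMSO libraries overlapped. A single copy, AT3TE51710, named after its values were seen, held most of this sum. It had 478, 455, 672 and 554 counts in Aza1 eM3, 414, 494 and 492 in Aza1 eM2, 564, 644 and 580 in DMSO, 562 and 421 in jas-3, and 114 and 104 in WT. In Aza1 eM2 against DMSO, ATREP10D again had the most rows called lower, 16 of 146, and ATREP11 had none of 56.

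Windows of 500000 bases with more TE than Gene sequence held 32.3% of all Helitrons, 15.8% of the tested ones, 11.0% of those called higher in jas-3 and 6.10% of those called lower in Aza1 eM2. The median length was 361 bases over all Helitrons, 418 over the tested ones and 526 over those called higher in jas-3. Median GC content was 24.3% in all Helitrons and 24.7% in those called higher in jas-3, against 35.0% in other TEs.

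CArG boxes, searched on both strands, occurred in 2.93% of Helitrons called higher in jas-3 and in 2.44% of those called lower in Aza1 eM2, against 3.70% of the tested and 3.39% of all Helitrons and 4.80% of other TE rows. Only exact matches to CCWWWWWWGG, where W is A or T, were counted as boxes. Per 10000 bases there were 0.448 boxes in those called higher in jas-3 and 0.346 in those called lower in Aza1 eM2. These 2 values rest on 8 and 2 Helitrons with a box. The density was 0.532 in the tested Helitrons, 0.640 in all Helitrons and 0.578 in other TEs. Of the 273 Helitrons called higher in jas-3, 265 had more than 90% of their 100-base windows occurring once in the genome.

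Many of these rows are parts of annotated transcripts. RefSeq places 801 of the 1188 tested Helitrons at least partly in an exon, 118 in introns only and 269 outside genes. Among the 47 far Helitrons called higher in jas-3, 20 touch an exon of a RefSeq gene that is not among the Gene rows and 27 lie outside RefSeq genes. The same split was 7 and 9 for the 16 far Helitrons called lower in Aza1 eM2. Neighbouring rows can also count the same transcript: of 262 pairs of tested Helitrons at most 100 bases apart, 59 had counts that agreed within 5% plus 2 counts in all libraries, and the 273 Helitrons called higher in jas-3 fell into 206 loci.

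Of 16 genes of DNA methylation and silencing, 5 were called higher in jas-3 than in WT and none lower: the maintenance methyltransferases MET1 and CMT3, the chromatin remodeller DDM1, the histone methyltransferase SUVH4 and CLSY1 of RNA-directed DNA methylation. Over all Gene rows 7.10% were called higher and 1.90% lower. None of the 16 was called in Aza1 eM2 against DMSO, where log2 fold changes ran between -0.34 and 0.49, and where 0.0759% of all Gene rows were called higher and 1.49% lower. The Helitrons nearest to 2 genes of the triploid seed response, named after their values were seen, had almost no reads: AT1TE79765, 558 bases from the MADS-box gene AGL38 (PHE2), had 1 count over all libraries, and AT4TE31160, 132 bases from AT4G11940 (ADM), had 1. AGL38 itself had 21, 39 and 12 counts in Aza1 eM2, against 2187, 742 and 408 in DMSO, and AT4G11940 had 14, 30 and 21 in Aza1 eM2, against 129, 99 and 125 in DMSO. Both genes were called lower (log2 fold changes -5.20, SE 0.92, adjusted p = 0.00496, and -2.15, SE 0.25, adjusted p = 0.000898).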

How the data were processed

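The authors aligned RNA-seq reads of messenger RNA to the TAIR10 genome with STAR, per the labels and the study's methods, counted and normalized with DESeq2, and deposited 1 table per library of raw whole-number counts for Gene, TE and intergenic rows; versions, strand use and the treatment of reads with several matches are not given in the sources used here. Counts of a Gene and an overlapping TE row can include the same reads.

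Gene and TE rows of all 14 libraries were fitted together (edgeR 4.0.16, R 4.3.3, quasi-likelihood test on 5 groups), with total Gene counts scaled by TMM as library sizes and low rows removed by filterByExpr, which left 25731 rows (22412 Gene, 3319 TE). P-values were adjusted by Benjamini-Hochberg over all of them. The common biological coefficient of variation was 0.263. Calls use the thresholds in the study's Methods, a log2 fold change of 2 and an adjusted p of 0.01; its Results word the first as a fold change. In simulated counts with 200 TE rows changed by 3 on the log2 scale, 195 (jas-3 against WT), 199 (Aza1 eM2 against DMSO) and 198 (Aza1 eM3 against Aza1 eM2) were recovered. The simulation gave every row the same biological coefficient of variation and no other difference between groups. Rows set lower in a group were raised in all other groups, not only in the compared one. It therefore does not give the share of real changes that the test finds in these libraries.

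Helitrons named are, per comparison, up to 4 far and 3 near ones called in each direction with the smallest adjusted p and no overlap of groups, the 5 far ones with the highest level per length, and others said to be named after their values were seen. The members, lists and rules were chosen with earlier results of these data known. RefSeq annotation and sequences (TAIR10.1, same lengths for chromosomes 1 to 5) gave gene names, exons and sequences, and 26907 of 27394 Gene rows matched a RefSeq locus. A count of 0 was set to a floor of 3 counts, and with 1 to 3 counts in a group the ratio has a 95% interval from the binomial distribution (exact); both cover counting error only. The 4 Aza1 eM3 libraries came from sibling plants, per the study, and the labels call the WT, jas-3 and DMSO libraries biological replicates. A figure legend of the study also lists the Aza1 eM2 libraries as biological replicates. It does not state whether each of these came from a separate plant. As all Aza1 plants come from 1 treated line, p-values measure the spread between these libraries. Alternatives were DESeq2 1.42.0, its size factors, total Gene counts, no filter, TE rows only, the groups compared only, replicate number as a block, counts divided by 2, the storage protein share as covariate, and leaving out each library.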

Additional observations from a re-analysis of the deposited data

Results flagged for a closer look

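Among the 30 named Helitrons and the 4 summed levels, 33 of which varied within Aza1 eM3, the only group of 4 libraries, 1 value had a library far from the others by Dixon's criterion, which chance gives in about 1 in 20 groups. AT3TE46220, Aza1 eM3 libraries, had 0, 0, 2 and 0 counts, and the gap of replicate 3 to the others made up the whole range (1.0).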

How the results depend on the processing

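Counts of called Helitrons, given as higher and lower calls, moved by over 1.5 times in these settings. For jas-3 against WT (273 and 26), only the groups compared gave 112 and 12, the storage share as covariate 102 and 1, total Gene counts 17 lower and the replicate block 15 lower; leaving out a library gave 154 to 217 and 7 to 13. For DMSO against WT (293 and 50), the storage share gave 136 and 4, total Gene counts 30 lower and the block 25 lower; leaving out a library gave 184 to 285 and 12 to 28. For DMSO against jas-3 (1 and 0), DESeq2 gave 2 and 1, the groups compared 0 higher, no filter 1 lower and the storage share 1 lower; leaving out a library gave 0 to 1 higher and 0 lower. For Aza1 eM2 against DMSO (3 and 82), DESeq2 gave 163 lower, TE rows only 128 lower, the block 0 and 39 and the storage share 0 and 25; leaving out a library gave 0 to 2 and 17 to 73. For Aza1 eM3 against Aza1 eM2 (40 and 1), DESeq2 gave 122 and 2, no filter 77 and 3, TE rows only 71 and 2, the groups compared 3 and 0, the block 12 and 0, counts divided by 2 gave 2 lower and the storage share 0 lower; leaving out a library gave 1 to 61 and 0 to 4. For Aza1 eM3 against DMSO (0 and 0), DESeq2 gave 1 higher. The cause was not tested. Nothing in the labels makes a replicate number a pair. Deviations from group means of same-numbered libraries correlated at -0.152 to 0.0776 for Aza1 eM2 and DMSO, -0.17 to -0.13 for Aza1 eM3 and Aza1 eM2, -0.255 to 0.238 for Aza1 eM3 and DMSO, 0.178 and 0.501 for DMSO and jas-3, -0.0182 and -0.0111 for DMSO and WT, and 0.00471 for jas-3 and WT; no comparison with 3 pairs had all over 0.1. Of 44 named results, none changed direction under any setting; 38 of 389 values under other settings and 53 of 228 with a library left out missed the threshold. Rows with few counts limit what could be detected: 6288 Helitrons had no count at all.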
